A study of Mus musculus with 4 samples.

Results

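The cells described here are the non-cycling surface epithelium of the fetal mouse ovary, 780 of the 14471 cells of the E12.5, E13.5 and E14.5 libraries, in a table of 19387 cells in all. A cell was counted when at most 1 of 6 germ cell genes (Dazl, Ddx4, Dnd1, Mael, Dppa5a, Mov10l1) was above 0, and when Upk3b and at least 1 of Krt19, Krt7, Upk1b and Tm4sf5 were above 0. The mean of these 5 epithelial genes also had to exceed the mean of 5 supporting cell genes (Fst, Wnt4, Wnt6, Irx3, Runx1), and at most 1 of 5 cell cycle genes (Top2a, Cdk1, Birc5, Ccnb1, 2810417H13Rik) could be above 0. The cells came from XX gonads of C57BL/6 embryos, dissociated and run on a droplet-based single-cell platform that reads the 3′ end of transcripts, with 1 library for each of 4 embryonic stages, from E11.5 in daily steps to E14.5. No allele, treatment or number of pooled embryos is given in the labels. With 1 library per stage, stage and library cannot be told apart, no difference could be tested and no p-value is given.

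The surface epithelium is the mesothelial sheet that covers the gonad and derives from the coelomic epithelium of the genital ridge. In the early gonad its dividing cells give rise to supporting cells, and later the layer slows its division and matures into the covering of the ovarian cortex. Mesothelial cells are known for simple-epithelium keratins, uroplakins and the transcription factor Wt1, and the fetal ovarian surface is a site of the R-spondin receptor Lgr5.

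The rule found 192 of 4842 cells (3.97%, exact Clopper-Pearson 95% interval 3.43 to 4.55) in the E12.5 library. It found 302 of 4842 (6.24%, 5.57 to 6.96) in the E13.5 library and 286 of 4787 (5.97%, 5.32 to 6.68) in the E14.5 library. At E11.5 the same rule gave 115 of 4916 cells (2.34%, 1.94 to 2.80), and these are used only as an outside value. The median cell of the class carried 11916, 10878 and 9448 unique molecular identifiers (UMIs) at E12.5, E13.5 and E14.5, and all its cells together 2420077, 3400146 and 2898816. Cells were thus shallower at the later stages, and the lowest UMI total of any cell in the library was 9791, 5407 and 7854. A doublet caller marked 2.17%, 1.96% and 1.96% of the cells of these libraries and 2, 2 and 0 of the 780 cells, which were kept. Pairs of the 4 libraries shared 19 to 36 cell barcodes, and 1 barcode was in the class at both E13.5 and E14.5. Levels below are a gene's UMIs in all cells of a class per 1000000 UMIs of that class (CPM), and their exact Poisson 95% intervals, like all intervals here, cover counting error only.

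Since the rule used measured values, the levels that chose the cells are a description. On the natural log scale of the table, the mean of the 5 epithelial genes was 0.739, 0.873 and 1.13 at E12.5, E13.5 and E14.5, and the mean of the 5 supporting genes 0.215, 0.224 and 0.50. Within 0.1 of equal means there were 8, 20 and 28 cells just inside the rule and 17, 19 and 17 just outside it. The inside cells at E14.5 averaged 0.763 for the epithelial and 0.701 for the supporting genes, and the outside cells 0.803 and 0.835. All 5 epithelial genes were seen in 24, 48 and 67 of the cells. The border toward supporting cells is thus a range and not a gap, with the most inside cells near it at E14.5.

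The label was checked against its 6 markers, of which Upk3b, Krt19 and Krt7 chose the cells and Cfap161, Igfbp2 and Cryab did not. Cfap161, whose product is associated with cilia, stood at 69.0, 67.9 and 98.3 CPM at E12.5, E13.5 and E14.5. The other non-germ cells with at most 1 cycle gene held 14.4, 17.4 and 20.5 CPM of it. Foxj1, the switch for motile cilia, had 1, 2 and 7 UMIs in all, so Cfap161 was not accompanied by it. Igfbp2, a secreted binding protein for insulin-like growth factors, stood at 690, 775 and 1510 CPM, against 411, 354 and 500 in cells chosen as supporting cells by the same gene lists. Cryab, a small heat shock protein of the lens and of epithelia, stood at 32.2, 60.3 and 99.0 CPM, against 6.92, 13.2 and 28.7. Supporting cells held 14.4, 20.1 and 23.4 CPM of Cfap161. All 3 markers outside the rule were thus higher in the class than in the cells they were set against. Those cells did not include cycling epithelial cells, which meet the rest of the rule but carry more than 1 cycle gene. Cycling epithelial cells held 50.1, 58.0 and 67.4 CPM of Cfap161 and 509, 659 and 1072 of Igfbp2. Their Cryab stood at 19.9, 51.1 and 74.7 CPM. These levels were under those of the class, but closer to them than the levels in supporting cells. Of the classical mesothelial genes, Wt1 (515, 590 and 420 CPM), Lrrn4 (44.6, 52.1 and 37.3 CPM) and Bnc1 (44.2, 47.6 and 29.0 CPM) were present. Msln, the mesothelin gene, had 0, 3 and 4 UMIs, and Cdh1, the gene of E-cadherin, 1, 0 and 1. Lhx9, a transcription factor of the early gonad, stood at 490, 526 and 480 CPM.

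The 20 leading genes were those with the largest ratio to the other non-germ cells with at most 1 cycle gene, ranked by the smallest of the 3 libraries. The 5 epithelial genes of the rule were all among them, at ranks 1 to 3, 6 and 7. Of the others, Tmem108, a transmembrane protein, stood at 106, 129 and 108 CPM against 8.88, 9.72 and 8.95, and Tmem151a at 81.0, 109 and 79.7 CPM against 4.75, 6.78 and 8.24. Both were flat across the stages, in contrast to Krt19. The list also held Myrf and Bnc1, which encode transcription factors, Hpgd, which encodes the enzyme that breaks down prostaglandins, Frem2, a basement membrane protein, and Sox6. Myl7, a myosin light chain best known from the heart atrium, stepped down from 118 to 85.6 and 45.9 CPM, after 279 CPM in the E11.5 cells. Cycling epithelial cells were not among the cells compared. They held 119, 126 and 138 CPM of Tmem108, 77.1, 94.9 and 76.3 of Tmem151a and 147, 98.5 and 76.9 of Myl7. These genes were thus shared with the cycling part of the epithelium.

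Promoters of the leading genes are shown for a motif that several of them share. Of the 20 genes, 17 had an entry in the RefSeq promoter table (GRCm38.p6), and the 250 bases before the start were searched on both strands for 5 short motifs. CATTCC (or GGAATG on the other strand), the core recognised by TEAD factors, was in 6 of these 17 windows and in 12.6% of 27018 promoters. The GC box GGGCGG was in 9 of the 17 and in 33.0% of all, TATAAA in 1 and 13%, AGATAA in 0 and 10.2%, and TAATTA in 0 and 4.91%. A match is a description of letters, not a bound site. The 6 stretches below have the motif in capitals and run 5′ to 3′ on the strand of the gene, with the motif's first base 241, 70, 196, 200, 90 and 107 bases before the start.
Upk3b, chr5:136038246-136038272, plus strand: aggaacggaCATTCCgagctggggaag
Myl7, chr11:5898835-5898864, minus strand: agcccaatcatcCATTCCtctccttatttg
Lrrn4, chr2:132881041-132881070, minus strand: gggctggagctgGGAATGccaggtctatgg
Frem2, chr3:53657538-53657567, minus strand: agggcgcccctcCATTCCaaccaacctgtt
Fah, chr7:84606015-84606044, minus strand: tcgagaggcgtgGGAATGgggtggcccggg
Sox6, chr7:116038834-116038863, minus strand: tcaggaacaaagGGAATGtggaaatgaaag
Of these 6 genes Myl7 had the lowest ratio of E14.5 to E12.5, from 118 to 45.9 CPM, while Upk3b (402 and 602), Frem2 (28.5 and 37.3) and Fah (44.6 and 47.3) stayed under a ratio of 2.

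At E14.5 the class held more of keratins, Igfbp2, Wnt6, Lgr5, Gng13 and some cell cycle inhibitors than at E12.5, and less Hmga2, Sox11, Id2, Id3 and Egr1. Cycling epithelial cells of the same libraries went the same way for Krt19, Igfbp2, Wnt6, Lgr5, Gng13 and Hmga2. The changes in these genes were thus not particular to the class. Since nothing could be tested, a gene was counted as higher or lower when it met a rule of size: a sum of 50 or more UMIs from the pair of libraries, a level of 20 CPM or more where it is higher, a ratio of 2 or more and Poisson intervals without overlap. From E12.5 to E14.5, 234 of 5862 genes (3.99%) were higher and 83 (1.42%) lower. From E12.5 to E13.5 the counts were 45 of 5629 (0.799%) higher and 60 (1.07%) lower. From E13.5 to E14.5 they were 150 of 5776 (2.60%) higher and 77 (1.33%) lower, a split that became 107 and 105 on a median-of-ratios scale. Cycling epithelial cells, which meet the same rule except that they carry at least 2 of the 5 cycle genes, gave 159 higher (2.71% of 5870) and 37 lower (0.630%) from E12.5 to E14.5. Both classes come from the same libraries. They had 109 of the higher genes in common, 46.6% of the 234, and 23 of the lower ones, 27.7% of the 83. The counts of the gene lists below are to be read beside the 3.99% higher and 1.42% lower over all genes, and with few genes tested per list they are descriptions. Some of the genes named below changed by as much or more in supporting cells of the same libraries: divided by the ratio there, the sign turned for Krt19, Krt14, Cryab, Cldn15, Aldh1a1, Dcn, Col1a1, Tagln, Svs5, Myl7, Atf3, Id3 and Igf2.

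**Figure D1:**
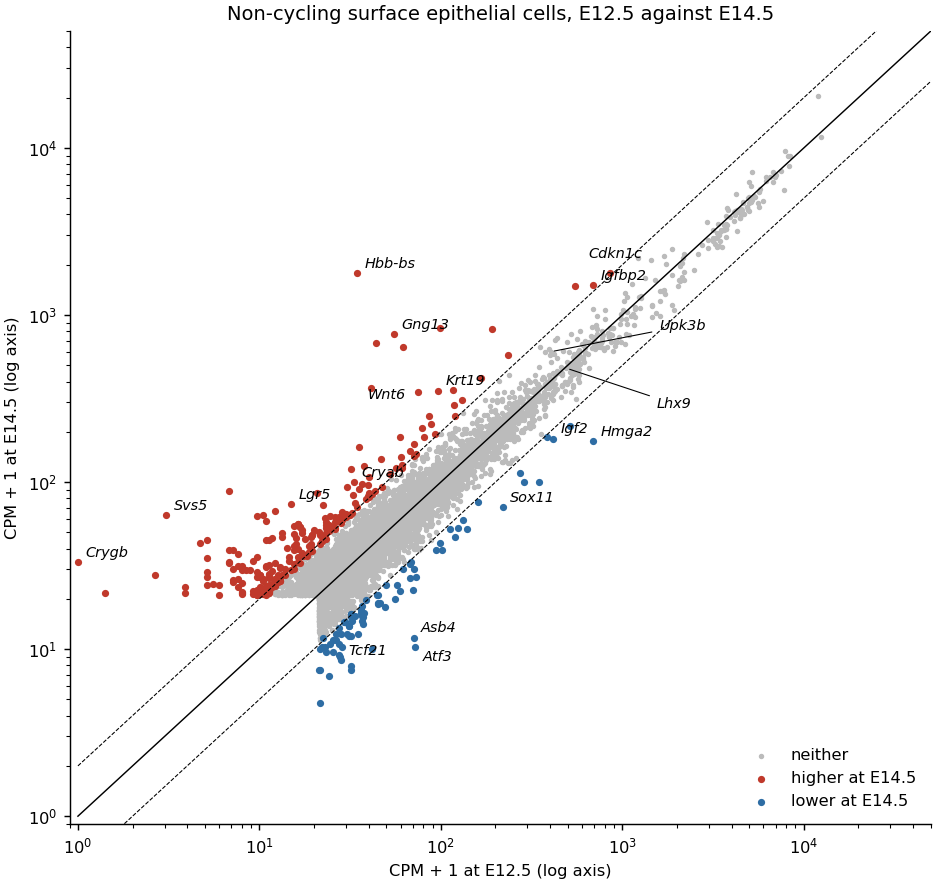
Each point is a gene that met the UMI and CPM minimums of the rule of size, with its CPM + 1 in the non-cycling cells at E12.5 on the horizontal and at E14.5 on the vertical log axis. The solid line marks equal levels and the dashed lines a ratio of 2 in CPM + 1. Red points (234) were higher and blue points (83) lower at E14.5, and Upk3b and Lhx9 lie between the dashed lines.

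Krt8, Krt14, Krt18 and Krt19 met the rule of size with higher levels at E14.5. Krt19, a keratin of simple epithelia and a gene of the rule, stood at 95.5 CPM (83.5 to 109), 164 CPM (150 to 178) and 352 CPM (330 to 374) in the order of the stages, a log2 ratio of 1.88 over the whole span. The main step was the last one, and the intervals of the 3 stages did not overlap. Krt8 and Krt18, which pair in the filaments of simple epithelia and had no part in the rule, stood at 115, 134 and 354 CPM and at 165, 215 and 418 CPM. Their log2 ratios from E12.5 to E14.5 were 1.62 and 1.34, so both were higher at E14.5. Krt14, usually a keratin of stratified epithelia, was low but also higher, at 9.50, 20.3 and 25.2 CPM. Krt7 went from 156 through 178 to 267 CPM (log2 ratio 0.78) and Upk3b, which encodes a uroplakin of the apical membrane, from 402 through 504 to 602 (0.58). Neither reached the ratio of 2. Of the 8 tested genes of a list of 15 keratins, uroplakins and Vim, 4 were higher, 0 lower and the median log2 ratio was 1.11, beside 0.01 over all genes tested. Of these 8, Krt19, Krt7, Upk1b and Upk3b chose the cells, so the list is a description and not support. Vim, the mesenchymal intermediate filament gene, was level at 413, 446 and 411 CPM.

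The share of cells with a Krt19 UMI, after each cell had been thinned at random to 5000 UMIs, was 27.1% (20.9 to 34.0), 43.4% (37.7 to 49.2) and 68.2% (62.4 to 73.5). Without thinning it was 47.4%, 61.6% and 79.7%, and in cycling epithelial cells 29.0%, 38.8% and 59.8% after thinning. In germ cells, which should lack the gene, it was 0.380%, 2.23% and 2.44% after thinning, with a median of 27053, 23785 and 15563 UMIs per cell before it. Both keratins of the rule, Krt19 and Krt7, were seen together in 24 of 192 thinned cells at E12.5, and in 22.8% and 50.7% of them later. Divided by its ratio in supporting cells of the same libraries, where Krt19 stood at 4.75, 11.4 and 24.1 CPM, the Krt19 log2 ratio turned to -0.46.

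**Figure D2:**
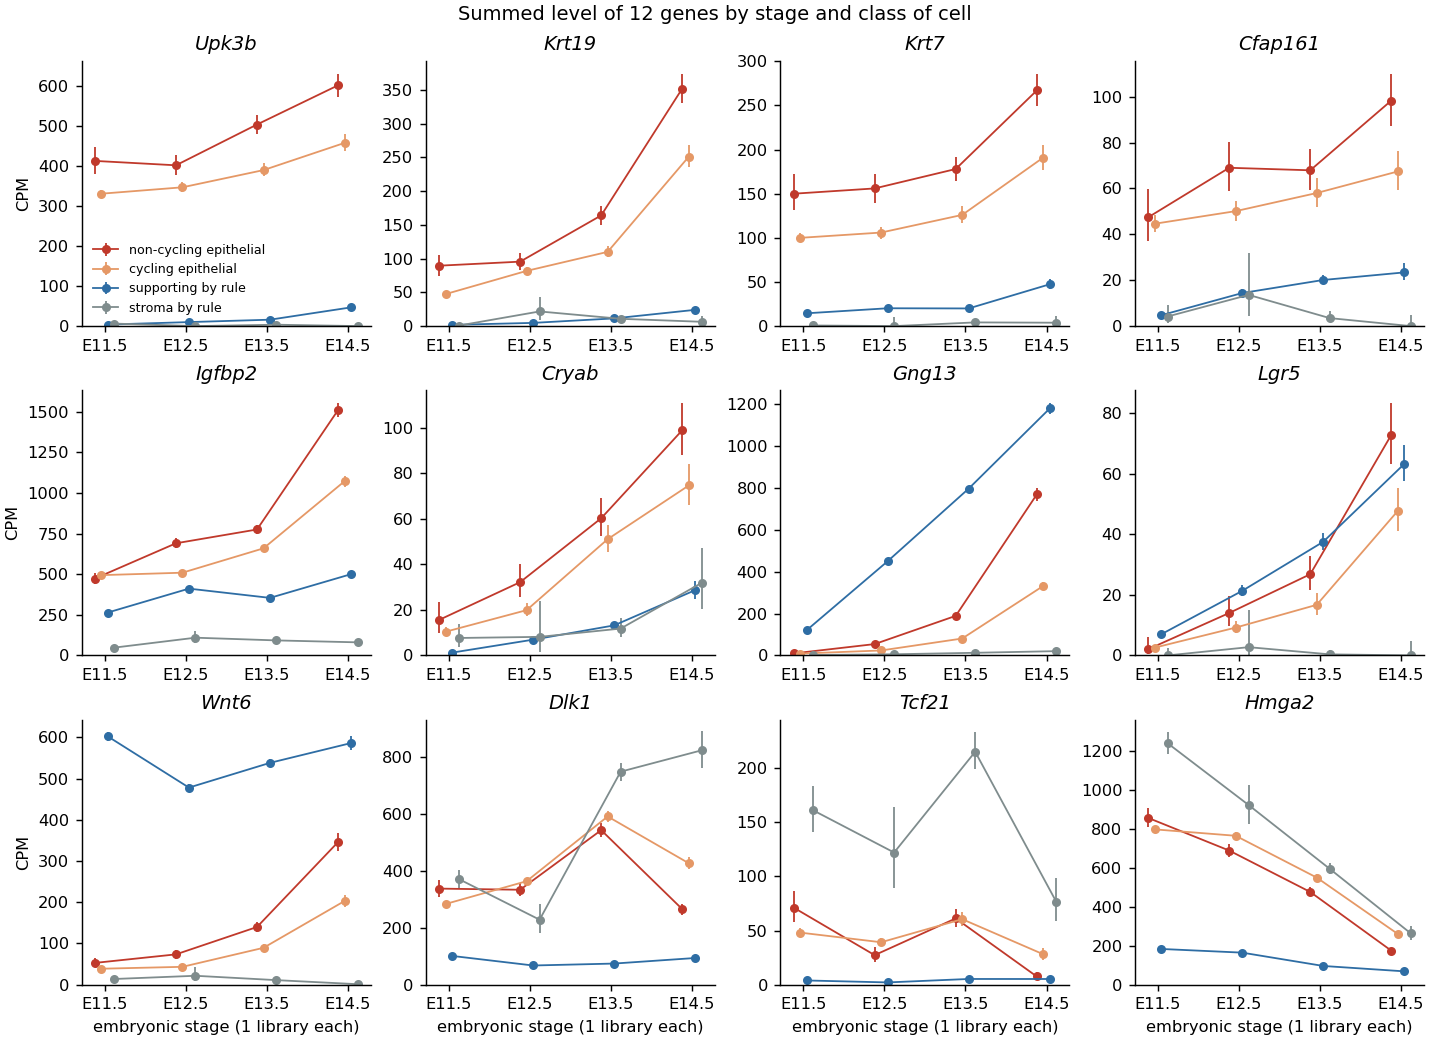
Level of 12 genes in CPM (vertical axes, linear and starting at 0) by embryonic stage (horizontal axes, 1 library each), with 1 line for each of 4 classes of cell and exact Poisson 95% intervals as bars. Igfbp2 and Krt19 are highest in the non-cycling epithelial cells at E14.5, at 1510 and 352 CPM, while Gng13 is highest in supporting cells at each stage, at 1180 CPM at E14.5.

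Among genes of cell junctions, most of those tested did not meet the rule of size. Of 36 genes of adhesion and polarity, 17 could be tested from E12.5 to E14.5, 2 were higher, 0 lower, and the median log2 ratio was -0.07. The 2 were Epcam, an epithelial adhesion molecule at 12, 8.23 and 26.2 CPM, and Cldn15, a claudin of tight junctions at 9.09, 12.1 and 26.6 CPM. Cdh2, the gene of N-cadherin, stood at 63.6, 45.0 and 52.1 CPM, with a log2 ratio of -0.29. In a list of 25 mesothelial genes, which shares 6 genes with the keratin and uroplakin list, 20 were tested, 6 were higher and 0 lower. Beside Krt8, Krt18 and Krt19 these were Lgr5, the retinoic acid enzyme Aldh1a1 and the caveolin Cav1, which went from 9.92 through 22.1 to 57.6 CPM. The mesothelial list includes Krt19, Krt7, Upk1b and Upk3b, which chose the cells, so its count is a description and not support.

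The growth factor genes of the class moved in both directions. Igfbp2 was at 690 CPM (658 to 724), 775 CPM (746 to 805) and 1510 CPM (1465 to 1555), with a log2 ratio of 1.13. After thinning, 85.9%, 78.8% and 96.9% of the cells had a UMI of it, against 17.4%, 17.9% and 18.5% of germ cells, and without thinning 94.8%, 89.4% and 99.3%. Igfbp3, a related binding protein, was also higher, at 22.7, 33.2 and 53.1 CPM. Igf2, the fetal growth factor these proteins bind, was lower, at 416, 132 and 181 CPM (log2 ratio -1.20). The step in Igf2 was not limited to this class: supporting cells went from 390 to 148 and 161 CPM, and stromal cells from 511 to 105 and 168. Stromal cells had at least 3 of Pdgfra, Tcf21, Dcn, Col1a1 and Islr above 0, with a mean above those of the epithelial and supporting genes. They numbered 32, 346 and 73 cells. Igf2bp1, which encodes an RNA-binding protein of fetal growth programmes, was lower at 66.5, 46.8 and 31.4 CPM. Of the 21 genes of this list 15 were tested, 3 were higher (the third was the protease gene Htra1) and 2 lower.

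Small heat shock proteins were split as well. Cryab had 78, 205 and 287 UMIs, which gave 32.2 CPM (25.5 to 40.2), 60.3 CPM (52.3 to 69.1) and 99.0 CPM (87.9 to 111), with a log2 ratio of 1.62. The thinned share of cells with a Cryab UMI was 14.1%, 23.8% and 33.6%, against 1.01%, 2.34% and 1.99% of germ cells, and 29.7%, 41.1% and 55.9% without thinning. Cryab overlaps Hspb2 on the opposite strand, and the counting is not stated to use strand. Hspb2 itself had 11, 14 and 8 UMIs. Hspb1, a partner of the same family, was higher at 77.3, 113 and 209 CPM, while Hspb8 was lower, with 69, 83 and 39 UMIs, or 28.5 CPM at E12.5 and a log2 ratio of -1.08. These 3 were the only genes that met the rule of size among the 13 tested of 18 chaperone genes (2 higher, 1 lower).

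Among WNT pathway genes, Wnt6 and Lgr5 were higher at E14.5 than at E12.5, and Lef1 and Fzd2 lower. Wnt6, a ligand gene of supporting cells and one that the rule set against the epithelial genes, went from 73.6 through 140 to 346 CPM (log2 ratio 2.24). Supporting cells stood at 478, 538 and 586 CPM of Wnt6, so the class stayed under them at every stage. Lgr5, the R-spondin receptor, had 34, 91 and 211 UMIs, or 14 CPM (9.73 to 19.6), 26.8 (21.5 to 32.9) and 72.8 (63.3 to 83.3), a log2 ratio of 2.37. Its thinned share was 5.21%, 8.94% and 28.3% of the cells, against 2.15%, 2.02% and 2.33% of germ cells, and 14.1%, 19.5% and 45.8% without thinning. In supporting cells Lgr5 stood at 21.3, 37.5 and 63.2 CPM, and in stromal cells at 2.72, 0.348 and 0 CPM. Cycling epithelial cells stood at 43.4, 89.5 and 203 CPM of Wnt6 and at 9.18, 16.7 and 47.7 CPM of Lgr5. Their levels were under those of the class but also higher at E14.5 than at E12.5. Wnt6 and Lgr5 each overlap an antisense gene, so their reads cannot be told from it without strand. Rspo1, the ligand of Lgr5, was at 85.1, 176 and 156 CPM and met the rule only from E12.5 to E13.5. Lef1, a transcription factor that carries the WNT signal to its targets, was lower at 92.6, 57.4 and 38.3 CPM, and so was the receptor gene Fzd2 (31.0, 30.9 and 15.2 CPM). Of the 47 genes listed 14 were tested, with 2 higher and 2 lower and a median log2 ratio of -0.22.

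Retinoid and BMP genes showed single members moving. Aldh1a1, which makes retinoic acid, went from 31.0 through 44.7 to 119 CPM (log2 ratio 1.94), while Aldh1a2, the enzyme with the same product that is typical of mesothelium, was level at 147, 185 and 174 CPM. Supporting cells held 32.2, 78.3 and 176 CPM of Aldh1a1, so their own ratio was larger. Crabp2, a carrier of retinoic acid to the nucleus, was lower at 69.0, 50.3 and 21.7 CPM. Of the 6 retinoid genes tested, 1 was higher and 1 lower. Id2 and Id3, direct targets of BMP receptors, were lower: Id2 at 286, 265 and 99.4 CPM (log2 ratio -1.53) and Id3 at 517, 434 and 216 CPM (-1.26). The lower counts fell in the last step for both. They were the 2 lower genes among 13 tested of 36 BMP and TGF-beta genes, none of which was higher. Id3 went from 715 to 296 CPM in supporting cells over the same span, close to the same ratio.

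Of the transcription factors listed for the gonad most did not meet the rule from E12.5 to E14.5, and Hmga2, Sox11, Cbx2 and Tcf21 were lower. Lhx9 and Wt1 had log2 ratios of -0.03 and -0.29 from E12.5 to E14.5, Gata4 (84.7, 105 and 78.0 CPM) -0.12 and Emx2 (227, 220 and 163 CPM) -0.48. Hmga2, a chromatin protein of fetal progenitors whose gene overlaps 2 genes on the opposite strand, was at 690 CPM (657 to 724), 477 (454 to 501) and 175 (160 to 191), a log2 ratio of -1.98. It was lower at E14.5 in other classes too, at 165, 96.5 and 68.8 CPM in supporting cells and 766, 551 and 261 in cycling epithelial cells. Sox11, a factor of immature cells, was at 219, 196 and 70.0 CPM, and Cbx2, a Polycomb component needed in early gonads, at 36.4, 19.7 and 13.1. Of the 38 listed factors 22 were tested, with 2 higher, 4 lower and a median log2 ratio of -0.38. The 2 higher were Runx1 (24.4, 20.9 and 52.8 CPM) and Irx3 (36.8, 52.1 and 123 CPM), factors of supporting cells.

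Runx1, Irx3 and Wnt6 belong to a list of 13 pre-granulosa genes, of which 7 were tested, 4 were higher and 0 lower, with a median log2 ratio of 1.11. The fourth was Kctd14, at 233, 322 and 576 CPM. The summed level of the list in the class was 670, 763 and 1460 CPM, against 4942, 4864 and 4462 in supporting cells. Of these 4, 3 chose the cells, by the condition that their mean stay under the epithelial mean. Fst, the follistatin gene, remained low at 4.96, 6.18 and 16.2 CPM against 295, 345 and 213 in supporting cells. Foxl2 was at 0 UMIs in the class at each stage, which allows up to 1.24, 0.882 and 1.03 CPM (3 UMIs of the total), but it was also at no more than 0.309 CPM in supporting cells, so it does not separate the 2 classes in this table. How much of the pre-granulosa signal comes from RNA of neighbouring cells was not tested.

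Some matrix genes of mesenchyme were higher at E14.5 than at E12.5. Of 32 interstitial matrix genes 20 were tested, 6 were higher and 0 lower, with 14 in neither direction and a median log2 ratio of 0.39. Of 32 basement membrane genes 16 were tested, 0 met the rule, and the median was 0.33, so the medians of the lists were close. Decorin (Dcn) was at 80.2, 144 and 184 CPM, elastin (Eln) at 12.4, 22.4 and 48.6, Col6a1 at 10.3, 24.7 and 44.2 and Col1a1 at 16.9, 41.8 and 44.8. Col1a1 was carried by 15.6%, 25.5% and 14.3% of the cells, so the level at E14.5 came from fewer cells than at E13.5. The smooth muscle genes Acta2 (4.13, 20.6 and 44.2 CPM) and Tagln (12.8, 20.3 and 26.6 CPM) were likewise higher, and 13.3% of the cells had a UMI of Acta2 at E14.5. In stromal cells Dcn, a gene that chose them, stood at 62.5, 226 and 491 CPM and Acta2 at 81.5, 172 and 442, with only 32 such cells at E12.5. Summed over 13 stromal markers, the class held 416, 642 and 563 CPM, with Lum at 0 UMIs at E12.5. Their part in the matrix result was not tested.

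The share of surface epithelial cells with at most 1 cycle gene was higher at E13.5 and E14.5 than at E12.5. Non-cycling cells made up 13.1% of all cells that met the epithelial part of the rule in the E11.5 library (11 to 15.6). In the later libraries they made up 23.7% (20.8 to 26.8), 45.9% (42.0 to 49.8) and 50.4% (46.2 to 54.6). Fewer UMIs per cell hide cycle genes, so the rule was repeated after thinning every cell to 5000 UMIs, where the shares were 28.6%, 36.6%, 62.3% and 62.4%. The step between E12.5 and E13.5 was present both ways, and the intervals of E13.5 and E14.5 overlapped both ways. With only cells of at least 9791 UMIs the shares from E12.5 on were 23.7%, 39.5% and 36.7%. The cycling cells were deeper, with a median of 14298, 14400 and 12055 UMIs from E12.5 to E14.5. Among the non-cycling cells 92, 139 and 111 had 1 cycle gene and 100, 163 and 175 none. Mki67, a proliferation marker outside the rule, had 5, 6 and 10 UMIs in the class, or 2.07, 1.76 and 3.45 CPM, against 126, 79.1 and 128 CPM in cycling epithelial cells.

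**Figure D3:**
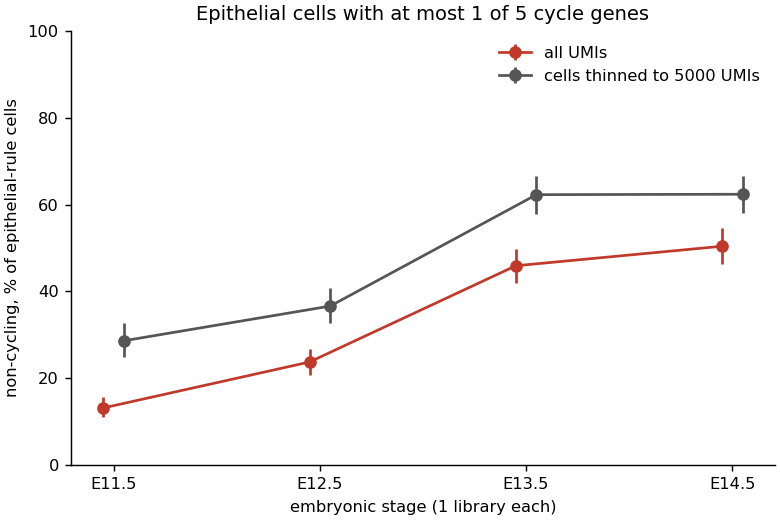
Share of cells meeting the epithelial part of the rule that carry at most 1 of 5 cycle genes (vertical axis, %) by stage (horizontal axis, 1 library each), with exact Clopper-Pearson 95% intervals. The red line uses all UMIs (13.1% at E11.5 to 50.4% at E14.5) and the grey line cells thinned to 5000 UMIs (28.6% to 62.4%).

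The inhibitors of cyclin-dependent kinases Cdkn1c, Cdkn1a and Cdkn2d were higher at E14.5 than at E12.5. Cdkn1c, the gene of p57, was abundant throughout and went from 858 CPM (822 to 896) through 889 (857 to 921) to 1788 (1740 to 1838), a log2 ratio of 1.06 that arose in the last step. Cdkn1a, the gene of p21, was at 9.50, 18.5 and 62.8 CPM (2.72), and Cdkn2d at 10.7, 12.1 and 23.1. Ccne1, the gene of cyclin E, was lower, with 75, 62 and 42 UMIs (log2 ratio -1.10), and Gas1, a growth arrest gene, was lower at 131, 222 and 58.0. Of 24 listed inhibitors, cyclins and related genes 14 were tested, with 3 higher, 2 lower and a median log2 ratio of -0.14. In cycling epithelial cells Cdkn1c stood at 629, 716 and 1250 CPM, lower than in the non-cycling cells at each stage but by less than a ratio of 2. Of 30 other cycle genes 14 could be tested from E12.5 to E14.5, and 0 met the rule.

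Part of the immediate early genes had lower levels at E14.5. Of 22 listed 16 were tested, 0 were higher and 5 lower, while 11 met the rule in neither direction, with a median log2 ratio of -0.66. Egr1 was at 272, 227 and 113 CPM, Dusp1 at 101, 85.0 and 38.3, and Atf3, a stress factor, at 71.1, 14.7 and 9.31. Nr4a1 and Klf6 were the other two. The summed list stood at 2017 CPM in the E11.5 cells and at 3199, 2970 and 2056 CPM from E12.5 to E14.5, so the E11.5 and E14.5 sums were close. Such genes also respond to dissociation, and the handling time of each library is not given in the labels, so stage and handling cannot be told apart. In supporting cells Atf3 went from 11.4 to 0.713 CPM and Egr1 from 186 to 169.

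Among the 10 largest ratios from E12.5 to E14.5 were genes seen in a minority of the cells and genes of blood, beside Gng13, which is described with the cycling cells. Crygb, a lens crystallin, had 0, 8 and 93 UMIs, at least 25.9-fold higher at E14.5 against a floor of 3 UMIs over the class, and 57 cells carried them. Svs5, named for seminal vesicle secretion, went from 2.07 through 13.2 to 62.1 CPM (log2 ratio 4.91) in 79 cells, and Cst12, a cystatin, from 5.78 through 21.2 to 87.3 CPM in 88 cells. Mia, which encodes a secreted protein first found in melanoma, went from 3.72 and 2.94 to 42.4 CPM in 58 cells. All 4 were also present in supporting cells at E14.5, at 14.1 CPM of Crygb, 32.0 of Svs5, 162 of Cst12 and 22.4 of Mia, so these genes were not limited to the surface cells. The adult globin Hbb-bs went from 33.5 through 142 to 1782 CPM. At E14.5 a UMI of it was in 99.0% of the cells, but the 3 richest cells held 69.9% of its UMIs, and supporting cells stood at 5805 CPM. C1qb, a macrophage gene, reached 20.7 CPM at E14.5 through 57 of 60 UMIs in 2 cells with at least 5 UMIs of immune genes, and without those cells it no longer met the rule.

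Among the genes that were lowest at E14.5, Asb4, a subunit of a ubiquitin ligase, went from 69.8 through 30.3 to 10.7 CPM and met the rule in both steps and overall (log2 ratio -2.71). Dusp6, a phosphatase induced by ERK signalling, went from 31.0 through 18.5 to 6.55 CPM (-2.24). Supporting cells held less of both at each stage, at 14.9 and 7.56 CPM of Asb4 and 14.2 and 5.85 CPM of Dusp6 for E12.5 and E14.5, log2 ratios of -0.98 and -1.28 at levels under the CPM minimum.

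A few genes were higher at E13.5 than at E12.5 and lower again at E14.5. The 2 steps share the E13.5 library, so a peak there counts once. Tcf21, a transcription factor of the gonadal mesenchyme, stood at 27.3 CPM (21.1 to 34.7), 61.2 (53.1 to 70.1) and 7.59, with UMIs in 31, 96 and 17 cells. The E11.5 cells held 71.2 CPM of Tcf21, so E13.5 was not its highest stage. Rspo3, an R-spondin ligand, was at 3.72, 21.5 and 4.14 CPM in 7, 39 and 8 cells, and Prrx2, a mesenchymal homeobox gene, at 24.4, 50.3 and 8.62. Stromal cells showed the same order for Tcf21 (122, 215 and 76.6 CPM) and Prrx2 (59.8, 88.4 and 28.1). Tcf21 was among the genes that chose the stromal cells, so its level there is a description. The E12.5 values rest on 32 stromal cells, with 45 UMIs of Tcf21. Cycling epithelial cells stood at 39.2, 60.5 and 28.1 CPM of Tcf21, a smaller last step. Tcf21 overlaps a gene on the opposite strand. Kif26b, a kinesin, was level to E13.5 at 33.9 and 45.3 CPM and then lower at 11.4.

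Set against cycling epithelial cells of the same library, the non-cycling cells had less of many genes of division and, by the rule of size, more of 1 gene. Of 5169 genes tested in all 3 libraries, 166 (3.21%) were lower in the non-cycling cells in each, led by genes of mitosis such as Nusap1 (1.65, 1.47 and 1.72 CPM against 147, 125 and 176), Hmmr and Kif2c. The rule chose the cells for this, so it is a description. Only 1 gene (0.0193%) was higher in all 3 libraries, Gng13, with 54.1, 189 and 769 CPM against 23.6, 80.7 and 332 and log2 ratios of 1.20, 1.23 and 1.21. With no germ cell gene allowed, Cst8, a cystatin, joined it at log2 ratios of 1.54, 1.01 and 1.18, and with no cycle gene allowed Calb1, a calcium-binding protein, at 1.10, 1.14 and 1.20. With each cell weighted equally no gene was higher in all 3 libraries, Gng13 having log2 ratios of 1.20, 0.98 and 1.17. With the epithelial mean at least 0.5 above the supporting mean, Gng13 had log2 ratios of 0.73, 1.47 and 1.28 and lost its call at E12.5, and Morn1 was the 1 gene called in all 3 libraries.

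Gng13 encodes a gamma subunit of heterotrimeric G proteins, known from taste and olfactory cells. It lies at chr17:25717171-25719406 on the plus strand (mm10, GENCODE vM21) and overlaps Chtf18 on the opposite strand. Chtf18, a replication factor gene, had 8, 11 and 8 UMIs in the class and was higher in cycling cells (18.3, 15.5 and 17.5 CPM against 3.31, 3.24 and 2.76), the reverse of Gng13. The 250 bases before the RefSeq start, shown because Gng13 was the 1 gene higher than in cycling cells, held none of the 5 motifs above.
Gng13, chr17:25716922-25717171, plus strand: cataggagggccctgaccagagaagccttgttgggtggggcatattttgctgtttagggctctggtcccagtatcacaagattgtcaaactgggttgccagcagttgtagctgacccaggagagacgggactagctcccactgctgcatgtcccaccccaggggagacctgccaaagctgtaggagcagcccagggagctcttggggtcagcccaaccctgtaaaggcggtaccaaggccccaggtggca
From E12.5 to E14.5 the Gng13 log2 ratio in the non-cycling cells was 3.83 (3.57 to 4.09), and each step met the rule (1.81 and 2.02). The thinned share of cells with a Gng13 UMI was 15.6% (10.8 to 21.5), 31.1% (25.9 to 36.7) and 82.5% (77.6 to 86.7), and 30.2%, 45.0% and 88.8% without thinning. Germ cells gave 22.2%, 30.4% and 29.5%, so only the E14.5 share stood clear of them. Stromal cells gave 0% (0 of 32 cells, interval 0 to 10.9), 6.65% and 5.48%, and supporting cells 63.3%, 69.1% and 83.4%. The UMIs at E14.5 were spread widely, with 4.17% of them in the 3 richest cells.

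In thinned cells of the class, the share with Gng13 was 15.6%, 31.1% and 82.5% at E12.5, E13.5 and E14.5. The share with Dlk1 was 64.1%, 76.2% and 50.7%, highest at E13.5 and lowest at E14.5. Dlk1, a membrane ligand related to Notch ligands and a mark of immature cells, stood at 333, 542 and 265 CPM. In thinned cells, Gng13 without Dlk1 was seen in 0% of the E11.5 cells (0 of 115, interval 0 to 3.16). Its share was 8.85% (5.24 to 13.8), 13.6% (9.92 to 18) and 45.8% (39.9 to 51.8) in the later libraries. Dlk1 without Gng13 was seen in 64.3%, 57.3%, 58.6% and 14% (10.2 to 18.6). This share also falls when Gng13 is seen in more cells, and its last step was larger than that of Dlk1 itself. The genes were not exclusive, since at E14.5 Gng13 was seen in 105 of the cells with Dlk1 and missing from 40. Both were seen in 4.35%, 6.77%, 17.5% and 36.7%, and neither in 31.3%, 27.1%, 10.3% and 3.50%. If the 2 genes were independent, both would be seen in 2.99%, 10.0%, 23.7% and 41.8%. The shares seen from E12.5 on were under these, but only the E13.5 interval (13.4 to 22.3) left out the value for independence. The intervals at E12.5 (3.65 to 11.3) and E14.5 (31.1 to 42.6) included it. In cycling epithelial cells Gng13 alone was seen in 4.05%, 7.87% and 24.9% from E12.5 to E14.5. Dlk1 alone was seen in 63.0%, 59.0% and 34.5% of them, and the last step was smaller for both. Their whole share with Gng13 was 10.0%, 24.4% and 59.4%. Their whole share with Dlk1 was 69.0%, 75.6% and 69.0%, so Dlk1 itself was not seen less at E14.5 than at E12.5. Sparse detection leaves some cells in the wrong set.

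**Figure D4:**
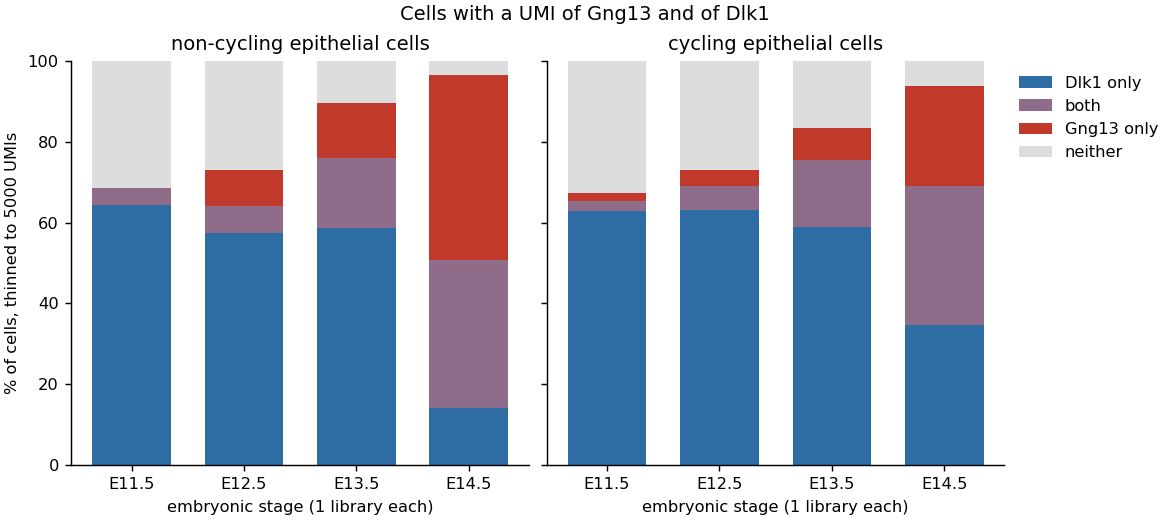
Stacked bars give the share of cells (vertical axis, %), each thinned to 5000 UMIs, with a UMI of Dlk1 alone, of both genes, of Gng13 alone and of neither, by stage (horizontal axis, 1 library each), in non-cycling cells on the left and cycling epithelial cells on the right. Dlk1 alone covers 57.3% of the non-cycling cells at E12.5 and 14% at E14.5, Gng13 alone 8.85% and 45.8%.

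The genes compared between these sets were chosen after their values had been seen, and the sets themselves were cut from measured values, so what follows is a description. At E14.5 there were 131 cells with Gng13 alone and 40 with Dlk1 alone, with a median of 9542 and 9502 UMIs. Cells with Gng13 alone held more Lgr5, Irx3 and Wnt6: Lgr5 at 94.4 against 12.3 CPM (log2 ratio 2.94, 1.68 to 4.59), Irx3 at 160 against 22.2 (2.85, 1.90 to 4.0) and Wnt6 at 398 against 116 (1.78, 1.35 to 2.24). Aldh1a1, at 159 against 27.1 CPM, and Kitl, the ligand of the germ cell receptor Kit, at 212 against 101 CPM, went the same way. Krt8, Igfbp2, Cdkn1c and the galectin Lgals7 differed by smaller ratios in the same direction, with log2 values of 1.06, 0.80, 0.77 and 0.95.

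Cells with Dlk1 alone held more S100a6, Ptn and Meg3. S100a6, a calcium-binding protein of fibroblasts and dividing cells, stood at 320 against 8.11 CPM, Ptn, a secreted growth factor, at 372 against 26.6, and Meg3, a noncoding RNA of the same imprinted region as Dlk1, at 1757 against 257. Col1a2 (310 against 60.5 CPM), Dcn (466 against 121), Wnt5a (143 against 22.1) and Hmga2 (318 against 126) went with them. In stromal cells at E14.5 Dlk1 stood at 822 CPM and Hmga2 at 264, against 265 and 175 in the whole class. Dcn was also higher in stromal cells, as given above. How far the sets lean toward supporting or stromal cells was not tested. Upk3b (608 with Gng13 alone against 559 with Dlk1 alone), Krt7 (271 and 271), Lhx9 (471 and 485) and Cryab (91.5 and 111) had log2 intervals that include 0. At E13.5 the Krt7 interval did not include 0 (0.65, 0.33 to 0.97). Krt19 stood at 364 against 291 CPM at E14.5 (log2 ratio 0.32, 0.03 to 0.62).

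At E13.5 the sets held 41 and 177 cells, with a median of 12204 and 10161 UMIs. The ratios had the same sign as at E14.5 for Lgr5 (68.4 against 12.3 CPM), Meg3 (352 against 1993), Ptn (7.81 against 341) and S100a6 (1.95 against 181), the last from a single UMI among the cells with Gng13 alone. Their size differed, with log2 ratios of -5.45 at E13.5 and -3.81 at E14.5 for Ptn. Krt19 was reversed at E13.5, at 87.9 against 188 CPM (log2 ratio -1.10, -1.58 to -0.65), and the Dcn interval included 0 (-0.36, -0.77 to 0.03). At E12.5, with 17 and 110 cells, Krt19 also stood lower with Gng13 alone (68.7 against 122 CPM, log2 ratio -0.83, -1.70 to -0.07), so the E14.5 library was the one with the other order. Cryab was higher with Gng13 alone at E12.5 (64.1 against 28.7 CPM, 1.16, 0.17 to 2.07), and its interval included 0 in both later libraries. These differences between libraries were not tested.

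**Figure D5:**
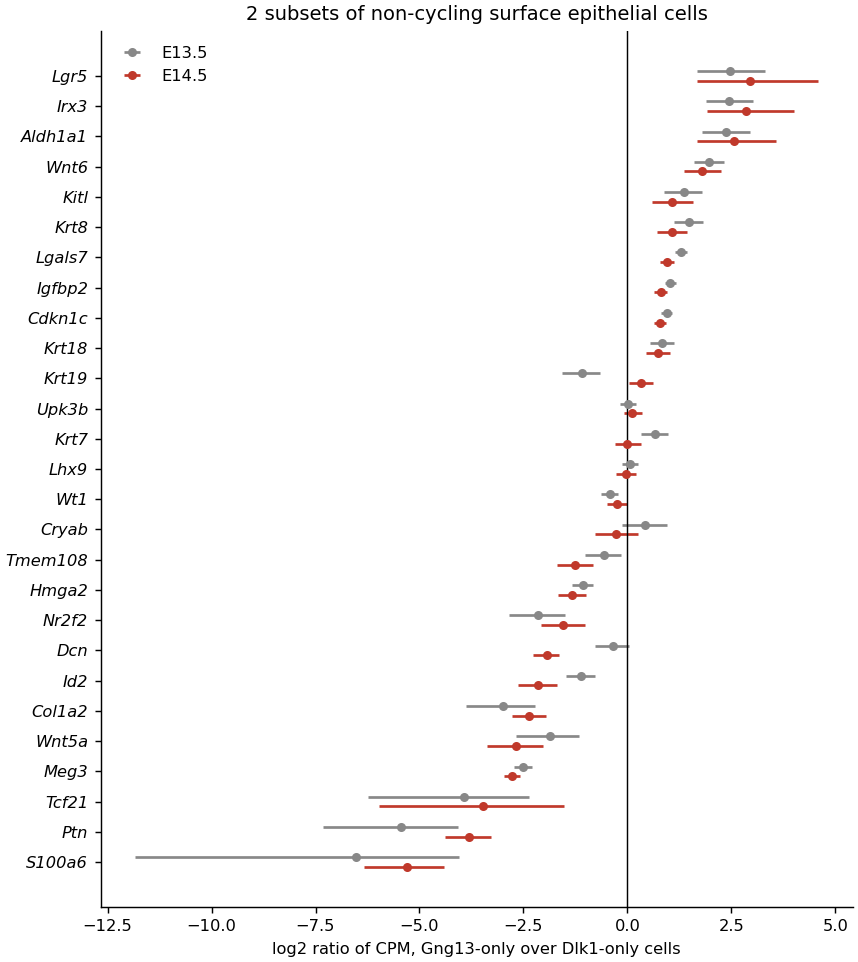
Log2 ratio of CPM in non-cycling cells with Gng13 alone over those with Dlk1 alone (horizontal axis) for 27 genes (vertical axis), at E13.5 in grey and E14.5 in red, with exact 95% intervals that cover counting error only. Lgr5 and Irx3 lie to the right at both stages, S100a6, Ptn and Meg3 to the left, and Krt19 lies on different sides (-1.10 and 0.32).

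Against supporting cells of the same library, chosen by at least 2 of the 5 supporting genes with a mean above the epithelial one and at most 1 cycle gene, 114 of 5403 genes (2.11%) were higher and 168 (3.11%) lower in all 3 libraries, and on a median-of-ratios scale 134 and 148. Outside the rule's own genes the higher ones were led by Tmem108, Tmem151a, S100a6 (52.5, 117 and 71.8 CPM against 4.37, 5.78 and 10.6), Lrrn4, Sox6 and Hpgd (147, 119 and 99.0 against 6.92, 7.89 and 17.5). The lower ones, leaving out the rule's genes and a globin, were led by Gatm, an enzyme of creatine synthesis (1.24, 4.41 and 10.7 CPM against 27.3, 97.8 and 213) and Bst2, an interferon-induced membrane protein (9.50, 10.9 and 24.5 against 302, 272 and 321). The supporting genes were lower in the class at each stage by the way the cells were chosen.

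Markers of other cell types were summed over the cells of the class. Endothelial markers stood at 93.4, 83.2 and 101 CPM, neural ones at 7.85, 6.76 and 6.90 with Sox10 at 0 UMIs, and perivascular ones at 22.7, 39.7 and 58.3. Mesonephric markers stood at 253, 248 and 216 CPM, mostly Emx2, with Cdh16 and Lhx1 at 0 UMIs. Germ cell markers went from 32.6 and 38.2 to 91.8 CPM in sum, immune markers from 4.55 and 9.41 to 95.2, and erythroid markers from 638 and 884 to 4071. At E14.5, 237 of 276 immune UMIs came from 2 cells, and the other cells held 13.6 CPM. The part of these cell types in the stage differences was not tested beyond the values given above for Hbb-bs and C1qb.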

How the data were processed

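Per the labels, 1 library of XX gonad cells was made at each of 4 stages with a 3′ single-cell kit. Per the submitters' processing notes, Cell Ranger 2.2.0 and mm10 were used; how cells were called, filtered and normalized, and whether counting used strand, is not given in the sources used here. The deposited values are on a natural log scale, ln(1 + UMIs per 10000 UMIs of the cell), set by the authors. All 69792436 values above 0 were whole multiples of the value of 1 UMI (tolerance 1e-06 relative), so UMIs were recovered for all 19387 cells and 19321 genes; the planned analysis had assumed counts. UMIs were summed by library and class and given as CPM with exact Poisson 95% intervals.

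The members and lists were chosen with earlier results of these data known. Genes named are those of the lists, the 10 largest ratios in each direction of each comparison and the 20 leading genes (smallest ratio over 3 libraries, 5 CPM added to both sides); Lgals7, Kitl, Ptn, Meg3, Cst8, Calb1, Morn1 and Chtf18 were chosen after their values were seen. The rule of size was tested on simulated data of 19321 genes with 200 changed: from E12.5 to E14.5 it found 100.0% of 4-fold and 57.5% of 2-fold changes and called 1 and 2 unchanged genes. The simulated counts had Poisson error only, without spread between cells or libraries, and the changed genes were drawn from the better expressed ones. These values therefore do not give the rate of false calls in the real data. Doublets were called with scanpy 1.11.5. Python 3.11.15, numpy 2.4.6, scipy 1.17.1 and matplotlib 3.10.9 were used. Cells, depth, margin, thresholds and scale were varied as alternatives.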

Additional observations from a re-analysis of the deposited data

How the results depend on the processing

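The share of all cells at E12.5, E13.5 and E14.5 was 3.04%, 4.71% and 4.14% with no germ cell gene allowed, and 1.98%, 3.80% and 3.34% with the epithelial mean at least 0.5 above the supporting mean. It was 3.31% at E14.5 with a common minimum depth, and 2.07%, 3.37% and 3.66% with no cycle gene allowed. The non-cycling share of epithelial cells was 36.6%, 62.3% and 62.4% after thinning to 5000 UMIs, 39.5% and 36.7% at E13.5 and E14.5 with a common minimum depth, and 12.4%, 24.8% and 30.9% with no cycle gene allowed. Under a common minimum depth the E14.5 share was thus under the E13.5 share. The genes that differed in the step that starts at E12.5, the step that starts at E13.5 and the whole span numbered 6, 23 and 51 at a ratio of at least 4, and 26, 106 and 155 after division by the ratio in supporting cells. With no CPM minimum they numbered 160 and 352 for the first 2 pairs. A ratio of at least 4 left 106 genes against cycling and 61 against supporting cells, and no CPM minimum gave 525 against supporting cells.

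Division by the ratio in supporting cells turned these log2 ratios from E12.5 to E14.5: Aldh1a1 to -0.52, Atf3 to 1.07, Cldn15 to -0.56, Col1a1 to -1.57, Cryab to -0.43, Dcn to -1.54, Id3 to 0.01, Igf2 to 0.08, Krt14 to -0.34, Krt19 to -0.46, Myl7 to 0.54, Svs5 to -0.48 and Tagln to -1.60. It turned Col1a1 to -0.03 and Tcf21 to -0.16 in the E12.5 to E13.5 step, and Cldn15 to -0.18, Dusp1 to 0.09 and Svs5 to -0.07 in the next step. C1qb went to -0.44 with the wider margin between the means. Beyond the division by supporting cells and the construction of each stricter rule, the cause was not tested. No paired analysis was possible because each stage has 1 library. The alternatives without immune-marked cells, with no cycle gene allowed and without erythroid genes in the totals were chosen after seeing the data. With 1 library per stage, replicate spread is unknown and intervals cover counting error only.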
